A study of Homo sapiens with 16 samples.

Results

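The human mitochondrial genome carries 37 genes, which were chosen here by their symbols starting with MT- and which were all of the genes placed on chromosome M among the 60357 genes of the in vitro count tables. They comprise 13 mRNAs, 2 rRNAs and 22 tRNAs. RNA was sequenced from the lines Kasumi-1 and SKNO-1, human acute myeloid leukaemia cells with the t(8;21) translocation, which express the fusion gene RUNX1/ETO. Both lines were given lipid nanoparticles (LNP) at 2 µg/ml for 24 h, were washed and were harvested on day 3, and each has 3 libraries labelled siMM-mod and 3 labelled siRE-mod. siRE-mod is a chemically modified siRNA against the fusion site of RUNX1/ETO and siMM-mod is its mismatch control, so that all 12 libraries come from LNP-treated cells and none from untreated cells. The labels do not say whether replicates were separate cultures, and p-values then measure only the spread between these samples.

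Mitochondria keep a small circular genome whose mRNAs encode core subunits of the respiratory complexes I, III, IV and V, while every other protein of the organelle is made from nuclear genes. Both strands are transcribed as long precursors by the polymerase POLRMT with TFAM and TFB2M, and the tRNAs that lie between the other genes mark where the precursors are cut. The mitochondrial rRNAs and tRNAs serve the organelle's own ribosome. The study compared the siRNAs to see which genes answer to loss of RUNX1/ETO, and the comparison is given here for the transcripts of the mitochondrial genome.

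The labels were first checked on RUNX1T1 (ETO), the 3′ partner of the fusion gene and the target of siRE-mod. RUNX1T1 did not follow the siRNA label in all libraries, and CD34, a surface marker of immature blood cells, did not follow the label of the line. Libraries were therefore also read by their CD34 and then RUNX1T1 level, in CPM (counts scaled by the total of all genes in a library). CD34 left a gap of 7.44 on the log2 scale between 6 libraries from 121 to 398 CPM, called CD34 high here, and 6 libraries from 0.117 to 0.695 CPM, called CD34 low. CD34 high are the Kasumi-1 siMM-mod replicates 1 and 2 by label, SKNO-1 siMM-mod replicates 1, 2 and 3 and SKNO-1 siRE-mod replicate 1. CD34 low are Kasumi-1 siMM-mod replicate 3, Kasumi-1 siRE-mod replicates 1, 2 and 3 and SKNO-1 siRE-mod replicates 2 and 3. IL5RA, a cytokine receptor chain, followed the same order, with at most 0.184 CPM in the CD34-high and 36.4 to 70.4 CPM in the CD34-low libraries. RUNX1T1 lay at 254 to 309 CPM in 3 and at 79.2 to 134 CPM in the other 3 CD34-high libraries. It lay at 150 to 174 CPM in 3 and at 41.3 to 52.7 CPM in the other 3 CD34-low libraries. The lower CD34-high values came from Kasumi-1 siMM-mod replicate 2, SKNO-1 siMM-mod replicate 3 and SKNO-1 siRE-mod replicate 1. The lower CD34-low values came from Kasumi-1 siRE-mod replicates 1 and 3 and SKNO-1 siRE-mod replicate 3. Since these sets were made from measured values, values are given for them as ranges, with no average and no test. The myeloid genes RUNX1, KIT, MPO and CD33 had at least 33.0 CPM in every library, and 7 markers of T, B and erythroid cells summed to 1.12 to 3.22 CPM.

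The genes are shown by the sequences on which the counts below turn, read from GRCh38 chromosome M, which has 16569 bases. The deposited coordinates of all 37 genes equal those of GENCODE release 44. The first 2 sequences are the tRNA genes with most counts, MT-TC at chrM:5761-5826 and MT-TN at chrM:5657-5729, both on the minus strand. They flank a gap of 31 bases in which light-strand replication starts. The next 2 are MT-TT at chrM:15888-15953 on the plus strand and MT-TP at chrM:15956-16023 on the minus strand, which rank next. Genes on the minus strand are named light-strand genes here, and those on the plus strand heavy-strand genes. MT-TV at chrM:1602-1670 and MT-TL1 at chrM:3230-3304, both on the plus strand and next to the rRNA genes, had almost no counts. Capitals mark the anticodon.
MT-TC: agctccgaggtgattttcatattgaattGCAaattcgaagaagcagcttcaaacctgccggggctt
MT-TN: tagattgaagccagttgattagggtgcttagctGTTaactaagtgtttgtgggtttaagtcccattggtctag
MT-TT: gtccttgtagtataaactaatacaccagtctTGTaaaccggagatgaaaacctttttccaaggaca
MT-TP: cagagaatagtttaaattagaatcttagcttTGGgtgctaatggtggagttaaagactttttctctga
MT-TV: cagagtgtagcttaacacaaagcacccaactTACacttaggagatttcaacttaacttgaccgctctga
MT-TL1: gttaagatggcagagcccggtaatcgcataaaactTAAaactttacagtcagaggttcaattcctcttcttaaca

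The end of MT-ATP8 is also the start of MT-ATP6, with 46 bases in common at chrM:8527-8572, in which capitals mark the start codon of MT-ATP6. MT-ND4L and MT-ND4 share 7 bases at chrM:10760-10766. How a read in shared bases was counted is not given in the sources used here.
MT-ATP8 and MT-ATP6: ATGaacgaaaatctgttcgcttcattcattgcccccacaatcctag

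Mitochondrial genes took a small share of the reads in every library. Below, values of a group are given for replicates 1, 2 and 3 in this order, and a line or siRNA always means the label of a library. In Kasumi-1, the share of all counts on the 37 genes was 1.14%, 0.680% and 1.18% with the siMM-mod label and 1.52%, 1.21% and 1.22% with the siRE-mod label. SKNO-1 had 1.39%, 1.03% and 2.45% with the siMM-mod label and 2.87%, 1.362% and 1.08% with the siRE-mod label. The highest shares were thus found in SKNO-1 siMM-mod replicate 3 and SKNO-1 siRE-mod replicate 1, which share a label of the line but not of the siRNA, and the labelled groups overlapped in SKNO-1. The same libraries had the highest levels of MALAT1, a long non-coding RNA of the nucleus. They had 7160 and 6977 CPM, beside 951 to 3935 CPM in the other 10. Both libraries are also CD34 high with low RUNX1T1. Kasumi-1 siMM-mod replicate 2, of the same set, had the lowest share of mitochondrial counts. The part of library composition in the mitochondrial share was not tested. Kasumi-1 had a mean of 1.00% ± 0.279 (SD, n = 3) with the siMM-mod label and 1.318% ± 0.178 (SD, n = 3) with the siRE-mod label, without overlap between the groups. The depth of 60559466 to 147990959 counts per library sets 95% Wilson intervals from 0.678% to 0.681% in the lowest and from 2.86% to 2.87% in the highest library, which cover counting error only and are far narrower than the spread between replicates. In bulk RNA, fewer mitochondria per cell and less RNA per mitochondrion cannot be told apart.

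Over both lines, the share was 0.232 percentage points higher with the siRE-mod label, which an exact two-sided permutation test within lines did not separate from the spread (p = 0.44, Benjamini-Hochberg adjusted p = 0.686 over 7 such tests, smallest possible p = 0.005). The siRE-mod library had the higher share in 5 of the 6 pairs with the same line and replicate number. Without SKNO-1 siRE-mod replicate 1, the difference turned to −0.0425 percentage points. The 13 mRNAs held nearly all of these counts, with 0.667% to 2.83% of a library, and differed by 0.211 percentage points (exact permutation p = 0.49). The 22 tRNAs held 0.00599% to 0.0158% and the 2 rRNAs 4.61e-05% to 0.111%. Their differences were 0.000671 (p = 0.7) and 0.0205 percentage points (p = 0.4) in the same exact permutation test, and without SKNO-1 siRE-mod replicate 2 that of the rRNAs was 0.00395.

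Levels of the genes were compared per length, as CPM per kb of the annotated gene. Among the mRNAs, those of complex IV, cytochrome c oxidase, led with a median over the 12 libraries of 2530 CPM per kb for MT-CO3, 2274 for MT-CO1 and 1238 for MT-CO2. MT-ND4, a membrane subunit of complex I (NADH dehydrogenase), followed with 1127 CPM per kb, and MT-ATP6, the proton channel subunit of ATP synthase, with 1093. The complex I mRNAs MT-ND1 and MT-ND2 had 859 and 845 CPM per kb and MT-CYB, the cytochrome b of complex III, 704. MT-ND5, MT-ND3 and MT-ND4L, also of complex I, had 521, 389 and 316 CPM per kb. The lowest medians were 273 CPM per kb for MT-ND6, the one mRNA encoded on the light strand, and 268 for MT-ATP8, the small subunit of ATP synthase. Ranges over the libraries overlapped between all neighbours in this order. Single mRNAs differed from 3.91-fold (MT-CO1) to 7.39-fold (MT-ATP8) between the lowest and the highest library, and no step between neighbours exceeded this spread. MT-ND6 is antisense to heavy-strand transcripts, and whether counting used the strand is not given in the sources used here, so its reads and those of the 8 light-strand tRNAs cannot be told from reads of the other strand.

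The mitochondrial mRNAs were next compared by label in edgeR, fitted over all genes with at least 600 reads. By the quasi-likelihood test with Benjamini-Hochberg adjustment, 0 of 13608 genes (0.0%) passed the threshold of 0.05 in Kasumi-1, where 2435 (17.9%) had an unadjusted p under 0.05 and DESeq2 called 1158 of 13288 (8.71%). For SKNO-1, edgeR likewise called 0 of 13628 genes (0.0%), 1455 (10.7%) had an unadjusted p under 0.05 and DESeq2 called 372 of 13361 (2.78%). The DESeq2 calls were 937 lower and 221 higher in Kasumi-1, and 18 lower and 354 higher in SKNO-1. Of the members, 19 of 37 reached the filter in Kasumi-1, 21 in SKNO-1 and 23 over the 12 libraries, including all mRNAs and rRNAs. 0 of the 13 mRNAs passed in either line by edgeR, 0 had an unadjusted p under 0.05, and DESeq2 called 0.

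The log2 fold changes of the mRNAs (siRE-mod over siMM-mod, after TMM scaling) were small. In Kasumi-1 they ran from −0.49 ± 0.27 (SE) for MT-ATP8 to 0.55 ± 0.34 for MT-CO1, with a median of −0.07 and 5 of 13 above 0, beside a median of 0.02 over all genes. The mean unscaled CPM was higher with the siRE-mod label for 12 of the 13, and the TMM factors were 0.838 to 0.938 in the Kasumi-1 libraries labelled siMM-mod and 1.08 to 1.16 in those labelled siRE-mod, so that the direction of most mRNAs turned with the scaling. In SKNO-1 the log2 fold changes ran from −0.34 ± 0.57 for MT-CO3 to 0.41 ± 0.30 for MT-CO1, with 5 of 13 above 0 and a median over all genes of 0.03, while the mean unscaled CPM was higher with the siRE-mod label for 10 of the 13. The difference between the lines was between −0.13 and 0.38 (log2) for the mRNAs, beside a median of 0.10 over all genes, and in edgeR 0 of 15863 genes (0.0%) passed for it, with 106 (0.668%) at an unadjusted p under 0.05 and 127 called by DESeq2 (0.808%). Without Kasumi-1 siMM-mod replicate 3, 4250 of 13200 genes (32.2%) passed in Kasumi-1 by edgeR, among them MT-CO1 with a log2 fold change of 0.95 (edgeR adjusted p = 0.0413). That fit leaves CD34-high libraries under one siRNA label and CD34-low libraries under the other, so that the siRNA and the CD34 level cannot be told apart in it.

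**Figure D1:**
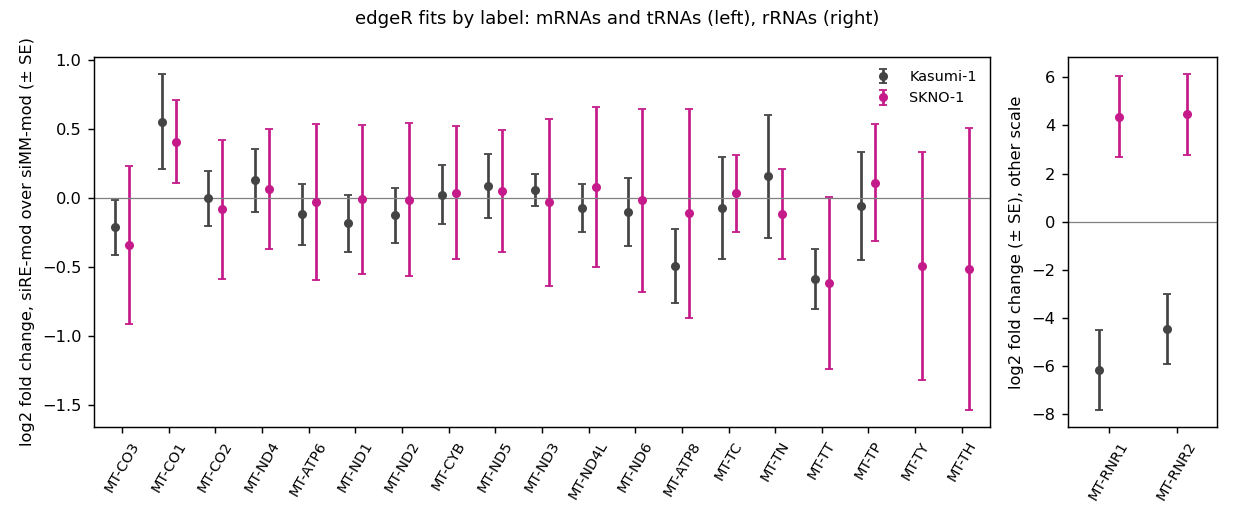
log2 fold change ± SE of the members that reached 600 reads, libraries labelled siRE-mod over siMM-mod, in Kasumi-1 and SKNO-1; the rRNAs have an axis of their own. For the mRNAs the values stay between −0.49 and 0.55, while the rRNAs lie at −6.19 and −4.48 (Kasumi-1) and at 4.37 and 4.46 (SKNO-1).

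The values of single libraries show how MT-CO1, the catalytic subunit of cytochrome c oxidase, was distributed. In Kasumi-1 it had 2189, 1187 and 3416 CPM with the siMM-mod label and 4639, 3615 and 3877 CPM with the siRE-mod label. In SKNO-1 it had 2412, 1738 and 4014 CPM with the siMM-mod label and 4503, 3356 and 3597 CPM with the siRE-mod label. The groups did not overlap in Kasumi-1 and did in SKNO-1. In Kasumi-1, MT-CO1 and MT-ND3, from 90.8 to 105 CPM with the siMM-mod label and from 112 to 139 CPM with the siRE-mod label, were the 2 of 13 mRNAs without overlap. Of all genes, 31.0% of the 15863 with 600 reads were higher without overlap in these unscaled values and 3.6% lower. In SKNO-1, 0 of the 37 members were without overlap, beside 6.33% of all genes higher and 4.67% lower. Between the labelled lines, again 0 members were, beside 0.107% of genes higher and 0.385% lower in SKNO-1. As a share of the mitochondrial mRNA counts, MT-CO1 was higher and MT-ND1 and MT-ND2 lower without overlap in Kasumi-1, and MT-CO3 was lower in SKNO-1.

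The make-up of the mitochondrial mRNA counts, which depends neither on the nuclear counts nor on the scaling, followed the CD34 level. MT-CO1 made up 17.1% to 19.2% of these counts in the CD34-high libraries with high RUNX1T1 and 15.9% to 17.8% in those with low RUNX1T1, but 27.1% to 30.2% in the CD34-low libraries with high and 30.7% to 33.6% in those with low RUNX1T1. MT-CO3, the third core subunit of the same enzyme, made up 18.5% to 22.2% in the CD34-high and 12.6% to 15.1% in the CD34-low libraries. The 2 mRNAs thus stood in reverse order in the sets. The ratio of MT-CO1 to MT-CO3 counts was 1.04 and 0.914 in Kasumi-1 siMM-mod replicates 1 and 2 and 2.01 in replicate 3, and 2.21, 2.40 and 2.12 with the siRE-mod label. In SKNO-1 it was 0.790, 0.813 and 0.743 with the siMM-mod label, and 0.819 in siRE-mod replicate 1 but 1.79 and 2.56 in replicates 2 and 3. The ratio was therefore at most 1.04 in all 6 CD34-high libraries and at least 1.79 in all 6 CD34-low libraries, whichever line and siRNA they were labelled with.

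Of the 13 mRNAs, 1 made up a higher share without overlap in the CD34-low libraries, which was MT-CO1, and 5 a lower one. These were MT-CO3, MT-CO2 (7.99% to 8.48% in CD34 high and 6.42% to 7.44% in CD34 low), MT-ND2 (8.07% to 9.06% and 6.20% to 7.45%), MT-ATP6 (6.54% to 7.93% and 4.72% to 6.33%) and MT-ATP8 (0.610% to 0.875% and 0.276% to 0.477%). Shares of 1 total are not independent, and a larger MT-CO1 lowers the others. By CPM, 0 of the 13 mRNAs and 0 of the 2 rRNAs were without overlap between the sets, beside 21.6% of all genes higher and 11.3% lower in the CD34-low libraries. MT-CO1 then lay between 1187 and 4503 CPM in the CD34-high and between 3356 and 4639 CPM in the CD34-low libraries, since the CD34-high libraries differed most in their total mitochondrial share, from 0.680% to 2.87%. MT-ND4, with 12.1% to 12.5% and 12.2% to 13.4%, and MT-ND5, the proton-pumping subunit at the end of the membrane arm of complex I, with 6.99% to 7.45% and 7.12% to 8.06%, held nearly the same share in both sets. MT-CYB had 6.51% to 7.36% and 6.22% to 6.92%, with overlap.

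Within the CD34-low libraries the make-up was also read by RUNX1T1, with 3 libraries against 3. Those with low RUNX1T1, Kasumi-1 siRE-mod replicates 1 and 3 and SKNO-1 siRE-mod replicate 3, had higher shares of MT-CO1 and MT-CO2 without overlap and lower shares of 5 mRNAs, MT-ND1, MT-ND2, MT-ND5, MT-ND6 and MT-ATP8. MT-ND1, a subunit near the quinone site of complex I, made up 5.15% to 5.60% with low and 6.51% to 7.31% with high RUNX1T1. MT-ND6 made up 0.753% to 0.972% with low and 0.978% to 1.24% with high RUNX1T1, so that the sets nearly touched. Complex I together made up 33.4% to 34.7% with low and 36.9% to 38.6% with high RUNX1T1, and complex IV 52.0% to 54.2% and 48.6% to 50.5%. These shares of 1 total are again not independent. By CPM, 0 of the 13 mRNAs were without overlap in this split of 3 libraries against 3, beside 31.1% of all genes higher and 15.3% lower. Within the CD34-high libraries, MT-ND2 was higher and MT-ND4 lower without overlap in the share of mRNA counts, where by CPM 16.8% of all genes were higher and 17.1% lower with low RUNX1T1, and 0 of the 37 members were.

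By label, complex I made up 37.9% ± 0.895 (SD, n = 3) of the mRNA counts with the siMM-mod label and 35.2% ± 2.28 (n = 3) with the siRE-mod label in Kasumi-1, while SKNO-1 had 39.1% ± 0.833 (n = 3) and 38.2% ± 3.33 (n = 3). The difference of −1.80 percentage points over both lines did not pass the exact permutation test within lines (p = 0.16, adjusted p = 0.686), and per kb of gene it was −0.259 points (exact permutation p = 0.775). For MT-ND6 the difference was −0.158 percentage points (exact permutation p = 0.275), with siRE-mod higher in 1 of 6 pairs. Without SKNO-1 siRE-mod replicate 1, the CD34-high library among those labelled siRE-mod, complex I differed by −2.58 points (exact permutation p = 0.03) and MT-ND6 by −0.260 points (exact permutation p = 0.035), neither adjusted for the 7 tests. The siRE-mod label then holds CD34-low libraries only. These were the smallest p of the alternatives, whose largest exact permutation p were 0.775 for complex I and 0.605 for MT-ND6.

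MT-ATP8 and MT-ATP6 are read from one bicistronic mRNA, with the 46 shared bases shown above. Counts of MT-ATP8 amounted to 0.0769 to 0.120 times those of MT-ATP6 in the CD34-high and 0.0502 to 0.0807 times in the CD34-low libraries, so that the sets overlapped in this ratio. In SKNO-1, MT-ATP8 had 94.0, 72.6 and 184 CPM with the siMM-mod label and 247, 59.1 and 33.5 CPM with the siRE-mod label. The highest and the lowest value thus stood under the same label.

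The rRNAs spread most, 3082-fold for MT-RNR1 and 1969-fold for MT-RNR2 between the lowest and the highest library. MT-RNR1, the 12S rRNA of the small ribosomal subunit, had 0.616, 36.5 and 4.45 CPM in Kasumi-1 with the siMM-mod label and 0.186, 0.360 and 0.185 CPM with the siRE-mod label. In SKNO-1 it had 16.7, 8.40 and 7.07 CPM with the siMM-mod label and 138, 571 and 1.86 CPM with the siRE-mod label. The lowest of these values rests on 16 counts and the highest on 55371. MT-RNR2, the 16S rRNA of the large subunit, moved with it, with 0.668, 25.7 and 3.46 CPM with the siMM-mod label and 0.275, 0.545 and 0.915 CPM with the siRE-mod label in Kasumi-1. In SKNO-1, MT-RNR2 had 14.9, 7.15 and 5.32 CPM with the siMM-mod label and 102, 541 and 2.16 CPM with the siRE-mod label. SKNO-1 siRE-mod replicate 2 was highest for both genes. The 3 Kasumi-1 siRE-mod libraries were lowest for MT-RNR1, while for MT-RNR2 Kasumi-1 siMM-mod replicate 1 lay below Kasumi-1 siRE-mod replicate 3. The ratio of MT-RNR1 to MT-RNR2 counts stayed between 0.203 and 1.42. The groups overlapped except for MT-RNR1 in Kasumi-1, which was lower without overlap with the siRE-mod label, as were 3.6% of all genes.

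The 2 rRNAs together made up 0.00303% to 8.17% of the mitochondrial counts, with 0.00303% to 0.915% in all libraries but SKNO-1 siRE-mod replicate 2. In edgeR, MT-RNR1 had a log2 fold change of −6.19 ± 1.65 (SE, adjusted p = 0.252) for Kasumi-1 but 4.37 ± 1.67 (adjusted p = 0.466) in SKNO-1. MT-RNR2 had −4.48 ± 1.46 (edgeR adjusted p = 0.253) for Kasumi-1 but 4.46 ± 1.68 (adjusted p = 0.466) in SKNO-1. Their signs were opposite in the lines, and the difference between the lines was 10.54 ± 2.58 for MT-RNR1 and 8.93 ± 2.43 for MT-RNR2 (edgeR, unadjusted p = 0.00210 and 0.00409, adjusted p = 1.00 for both). DESeq2 called both genes lower in Kasumi-1 (adjusted p = 1.9e-05 and 0.0031), 0 members in SKNO-1 and both for the difference (adjusted p = 0.00015 and 0.0022). Of all genes it called 937 lower and 221 higher in Kasumi-1, and 0 lower and 127 higher for the difference. Without Kasumi-1 siMM-mod replicate 3, MT-RNR1 passed in edgeR in Kasumi-1 (−6.62, adjusted p = 0.0310), as did 32.2% of all genes. Without Kasumi-1 siMM-mod replicate 2, the library with 36.5 CPM of MT-RNR1, both rRNAs fell below 600 reads in Kasumi-1 and were not tested. For SKNO-1 without siRE-mod replicate 2, the log2 fold changes were 2.63 for MT-RNR1 and 2.44 for MT-RNR2 (edgeR adjusted p = 0.868 for both). The rRNA share of mitochondrial counts differed by 1.27 percentage points over both lines (exact permutation p = 0.7) and by −0.0155 without SKNO-1 siRE-mod replicate 2. The sets by CD34 and RUNX1T1 overlapped as well. How RNA was selected for sequencing is not given in the sources used here. The nuclear 5.8S rRNA symbols summed to 304 to 1802 CPM and had 494 CPM in SKNO-1 siRE-mod replicate 2, and the part of RNA selection in the rRNA values was not tested.

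**Figure D2:**
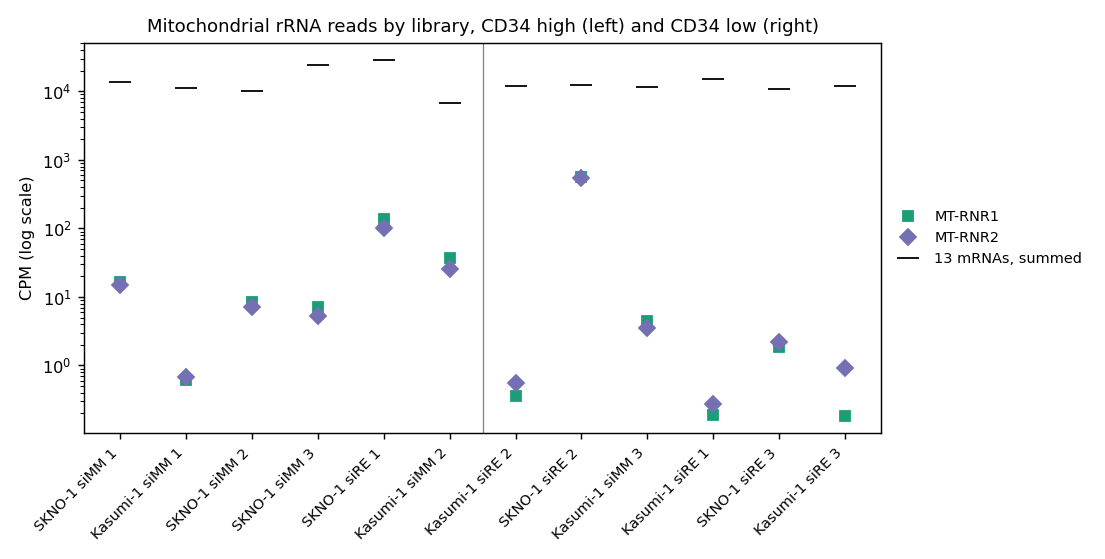
CPM of MT-RNR1 and MT-RNR2 and summed CPM of the 13 mRNAs (log axis) in each library, named by line, siRNA and replicate. Libraries run from high to low RUNX1T1 within CD34 high (left) and CD34 low (right); MT-RNR1 spans 0.185 to 571 CPM and the summed mRNAs 6675 to 28261 CPM.

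The tRNAs were dominated by few genes. MT-TC, the tRNA for cysteine, had a median of 996 CPM per kb and MT-TN, that for asparagine, of 245, and together with MT-TT (threonine, 86.0) and MT-TP (proline, 71.9) they stood above the other 18, whose medians were at most 19.0 CPM per kb. MT-TC alone took 56.4% to 70.7% of the counts on tRNAs and MT-TN 12.5% to 21.1%. In Kasumi-1, MT-TC had 34.2, 37.5 and 82.1 CPM with the siMM-mod label and 69.3, 65.8 and 43.9 CPM with the siRE-mod label. In SKNO-1, it had 65.6, 56.3 and 87.5 CPM with the siMM-mod label and 92.6, 84.9 and 50.9 CPM with the siRE-mod label. Both groups overlapped in both lines. MT-TC and MT-TN are shorter than the fragments usual in RNA-seq, so that reads of the mature tRNA and of longer transcripts cannot be told apart.

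At the other end, MT-TV (valine) was at 0 in 11 and MT-TL1 (leucine) at 0 in 10 of the 12 libraries, where a count of 0 allows up to 0.0203 to 0.0495 CPM (3 counts). MT-TE (glutamic acid) was at 0 in 1 library. In all, 8 of the 22 tRNAs reached 600 reads over the 12 libraries. 4 of them were tested in Kasumi-1, where 0 passed in edgeR and MT-TT had an unadjusted p of 0.0343 with a log2 fold change of −0.59 ± 0.22 (SE, edgeR adjusted p = 0.256). MT-TT had 7.46, 5.30 and 5.91 CPM with the siMM-mod label and 5.45, 4.96 and 4.93 CPM with the siRE-mod label there. 6 tRNAs were tested in SKNO-1, where 0 passed and 0 had an unadjusted p under 0.05, with −0.62 ± 0.62 (SE) for MT-TT. Without SKNO-1 siRE-mod replicate 1, 2535 of 13119 genes (19.3%) passed in SKNO-1 and MT-TT had −1.57 (edgeR adjusted p = 0.0435), again with 1 CD34 level per siRNA label.

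By CPM, 4 of 22 tRNAs were lower without overlap with the siRE-mod label in Kasumi-1, MT-TM, MT-TY, MT-TH and MT-TE. Only MT-TY and MT-TH reached 600 reads, so that 2 of the 8 such tRNAs stood beside 3.6% of all genes with 600 reads. MT-TE rests on 6, 6 and 4 counts with the siMM-mod label and 3, 4 and 2 counts with the siRE-mod label. MT-TY, for tyrosine, had 1.53, 1.03 and 1.48 CPM with the siMM-mod label and 0.147, 0.344 and 0.938 CPM with the siRE-mod label. In the CD34-low libraries, 3 of 22 tRNAs were lower without overlap than in the CD34-high ones, beside 11.3% of all genes. Only MT-TH, for histidine, reached 600 reads, as 1 of 8 such tRNAs. It had 1.084 to 3.36 CPM in CD34 high and 0.237 to 1.083 CPM in CD34 low, so that the sets nearly touched. MT-TM and MT-TE, the others, had at most 0.660 and 0.184 CPM. Within CD34 low, MT-TP was lower with low RUNX1T1, at 3.72 to 4.96 CPM against 5.61 to 6.74 CPM, as were MT-TK and MT-TF. These were 3 of 22 tRNAs, and 2 of the 8 with 600 reads, beside 15.3% of all genes with 600 reads. MT-TF rests on 3 to 9 counts a library there, and its nearest values on 5 counts each.

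Near-identical copies of mitochondrial genes lie in the nuclear genome and could take or give reads. Of 407 listed pseudogene symbols, 162 had counts, and 95.8% of these fell on 5 copies next to each other on chromosome 1 (GRCh38), from 629062 to 634922 on the plus strand. The copies matched their mitochondrial genes at 98.2% to 99.1% of aligned bases. MTND2P28, the copy of MT-ND2, held 17.4% to 28.6% as many counts as MT-ND2, MTATP6P1 4.04% to 12.3% as many as MT-ATP6 and MTCO1P12 3.51% to 5.68% as many as MT-CO1. All pseudogenes together had 2.67% to 4.32% as many counts as the 37 genes. With the counts of the copies added to their genes, an alternative chosen after the data were seen, MT-CO1 made up 16.2% to 19.5% of the mRNA counts in the CD34-high and 27.4% to 33.9% in the CD34-low libraries, and the ratio of MT-CO1 to MT-CO3 was 0.780 to 1.08 and 1.87 to 2.68. The same 6 mRNAs were without overlap.

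Nuclear genes that serve the mitochondrial genome were taken from 7 lists. In edgeR 0 members of any list passed in either line. Lists other than biogenesis regulators and tRNA synthetases had 1 to 19 members at unadjusted p under 0.05 in Kasumi-1. Since the lists differ in length, this range cannot be set against the 17.9% of all genes. Of 9 genes for transcription, 1 had an unadjusted p under 0.05 in each line, beside 17.9% (Kasumi-1) and 10.7% (SKNO-1) of all genes. The medians of their log2 fold change were −0.32 (Kasumi-1) and −0.31 (SKNO-1). POLRMT, the polymerase, had −1.09 ± 0.52 (SE, edgeR adjusted p = 0.325) and −0.99 ± 0.42 (0.470), and TFAM, which packs and bends the DNA at the promoters, −0.32 ± 0.15 (0.318) and −0.36 ± 0.20 (0.523). By CD34, POLRMT lay at 36.6 to 59.8 CPM in the CD34-high and at 10.8 to 30.1 CPM in the CD34-low libraries. TFB2M, which opens the promoter, lay the other way at 21.7 to 34.6 and 53.4 to 71.5 CPM. TFAM overlapped with 82.9 to 115 and 81.5 to 103 CPM. In all, 3 of the 9 were higher and 3 lower without overlap in CD34 low, beside 21.6% and 11.3% of all genes.

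Of 12 genes for replication and nucleotide supply, 3 were higher and 2 lower without overlap in the CD34-low libraries, beside 21.6% and 11.3% of all genes. SSBP1, which coats single-stranded mitochondrial DNA, had a log2 fold change of −0.74 ± 0.23 (edgeR adjusted p = 0.252) in Kasumi-1 and −0.71 ± 0.26 (0.466) in SKNO-1 and lay at 147 to 219 CPM in CD34 high and 97.2 to 132 CPM in CD34 low. POLG, the replicative polymerase, had 0.21 ± 0.17 and 0.04 ± 0.19. DESeq2 called TOP1MT and SSBP1 lower in Kasumi-1 and RRM2B, a subunit of ribonucleotide reductase, higher in SKNO-1. They are named here after their values were seen. Of all genes it called 8.71% in Kasumi-1, 937 lower and 221 higher, and 2.78% in SKNO-1, 18 lower and 354 higher.

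Of 19 genes for processing and stability of mitochondrial RNA, 6 were higher and 0 lower without overlap in CD34 low, beside 21.6% and 11.3% of all genes. GRSF1, which binds RNA in mitochondrial granules, lay at 127 to 160 CPM in CD34 high and 164 to 183 CPM in CD34 low. LRPPRC and SLIRP, which form a complex that stabilizes mitochondrial mRNAs, lay at 705 to 970 and 587 to 1064 CPM and at 49.4 to 92.9 and 49.3 to 89.7 CPM. ELAC2, which cuts the 3′ ends of tRNAs, lay at 53.8 to 77.3 and 48.2 to 79.7 CPM, so that these 3 overlapped between the sets. Their log2 fold changes in edgeR were between −0.49 and −0.10 in both lines. PPARGC1A, a coactivator of mitochondrial biogenesis, had at most 0.0825 CPM and did not reach the filter. The other biogenesis regulators PPRC1 and GABPA had medians of 108 and 45.2 CPM, and of the 5 with 600 reads 1 was higher and 0 lower without overlap in CD34 low, beside the same 21.6% and 11.3%.

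Mitochondrial ribosomal proteins, of which 77 of 78 reached the filter, had a median log2 fold change of 0.01 (Kasumi-1) and 0.04 (SKNO-1). In edgeR, 10 and 3 had an unadjusted p under 0.05, beside 17.9% and 10.7% of all genes, and 0 passed the threshold. MRPL3, a protein of the large subunit, lay at 158 to 210 CPM in CD34 high and 219 to 278 CPM in CD34 low, and 22 of the 77 were higher and 1 lower without overlap, beside 21.6% and 11.3% of all genes. DESeq2 called 4 lower in Kasumi-1, MRPL11, MRPS16, MRPL48 and MRPL54, named after their values were seen. Beside them, it called 8.71% of all genes, 937 lower and 221 higher. Of 19 tRNA synthetases, 5 were higher and 1 lower without overlap in CD34 low, again beside 21.6% and 11.3% of all genes. KARS, which serves the cytosol as well, lay at 190 to 279 and 286 to 344 CPM. GARS overlapped with 140 to 229 and 158 to 202 CPM.

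Nuclear subunits of the respiratory complexes, the partners of the mitochondrial mRNAs' products, had a median log2 fold change of −0.29 (Kasumi-1) and −0.27 (SKNO-1) over 74 tested genes, beside 0.02 and 0.03 over all genes. In edgeR 0 passed, and 19 and 5 had an unadjusted p under 0.05, beside 17.9% and 10.7% of all genes. Beside 8.71% and 2.78% of all genes, DESeq2 called 12 lower for Kasumi-1, such as ATP5MC2, COX7C and ATP5F1C, and 0 for SKNO-1. These genes are named after their values were seen. Of all genes, DESeq2 called 937 lower and 221 higher in Kasumi-1. ATP5F1A and ATP5F1B, the catalytic head of ATP synthase, had −0.55 ± 0.18 (SE, edgeR adjusted p = 0.253) and −0.44 ± 0.19 (0.296) for Kasumi-1, and for SKNO-1 −0.32 ± 0.19 and −0.22 ± 0.26. Between the sets by CD34, 6 of 75 were higher and 3 lower without overlap in CD34 low, beside 21.6% and 11.3% of all genes. ATP5F1A lay at 754 to 899 CPM in CD34 high and at 644 to 913 CPM in CD34 low.

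Kasumi-1 cells harvested from mice gave 4 further libraries, 2 labelled siMM-mod and 2 labelled siRE-mod. All 37 genes are listed there with 0 counts in each library. Since at most 0.0335% of the reads in these tables lie on genes, 5571 to 10266 counts, no level is given for them.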

How the data were processed

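RNA-seq of 12 in vitro libraries and 4 in vivo libraries was analysed from deposited tables. The authors trimmed reads with trim galore 0.6.5, aligned them to GRCh38 with STAR 2.7.10a and counted over exons with Subread; the deposited in vitro tables hold raw counts per gene and CPM, which equal the counts scaled by the library total, and name Rsubread 1.32.4. For the in vivo libraries the authors deposited unnormalized counts per gene, as HTSeq writes them. Groups came from the sample labels. The members and gene lists were chosen with earlier results of these data known.

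Following the study, genes entered a fit when its libraries summed to at least 600 reads. Counts were tested in R 4.3.3 with edgeR 4.0.16 (TMM, glmQLFit with robust estimation, glmQLFTest, threshold 0.05 after Benjamini-Hochberg adjustment over all genes tested), by siRNA label within each line and as an interaction of line and siRNA. SE is the log2 fold change divided by the root of F. Shares of counts were compared by exact two-sided permutation of the siRNA labels within lines (400 arrangements), since 3 libraries against 3 in 1 line cannot give a p under 0.1. Copies were aligned with Biopython 1.88. Anticodons were located by the loop and a stem of 5 pairs of which at least 4 match. All members were named, the nuclear genes by role or as the 2 with the highest mean CPM of a list. Alternatives were DESeq2 1.42.0 (the tool of the study), its size factors, scaling by nuclear genes, no filter, a replicate block, 1 fit over all 12 libraries, and each library left out. The procedure was run on simulated counts with less spread between replicates than in these data. That run cannot show how many changed genes edgeR would miss here. Tables were made in Python 3.11.15 with pandas 2.3.3, numpy 2.4.6 and scipy 1.17.1, figures with matplotlib 3.10.9.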

Additional observations from a re-analysis of the deposited data

How the results depend on the processing

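Counts of genes past the threshold turned on the tool. Where edgeR called 0, DESeq2 called 1158 (Kasumi-1), 372 (SKNO-1) and 127 genes (difference between the lines), of which 2, 0 and 2 were mitochondrial. Genes for which DESeq2 gave no adjusted p were not counted. With one library left out, edgeR called 0 to 4250 genes for Kasumi-1 and 0 to 2535 for SKNO-1, and that of mitochondrial genes from 0 to 2 and from 0 to 1. All calls came from leaving out Kasumi-1 siMM-mod replicate 3 or SKNO-1 siRE-mod replicate 1, which leaves 1 CD34 level under each siRNA label. Size factors of DESeq2, scaling by nuclear genes, no filter, added copies and one fit of all libraries kept 0 calls. The differences of shares ran over the libraries left out from −0.0425 to 0.439 percentage points for the 37 genes, from −0.0679 to 0.417 for mRNAs, from −0.000347 to 0.00176 for tRNAs, from −0.0155 to 2.02 for the rRNA share of mitochondrial counts, from −2.58 to −0.924 for complex I and from −0.260 to −0.0586 for MT-ND6. The cause was not tested.

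Deviations from the group mean, between libraries of the same replicate number, had correlations of −0.0185, −0.272 and −0.0132 for Kasumi-1. For SKNO-1 they were −0.133, −0.0213 and −0.246. Since the labelled groups mix CD34 or RUNX1T1 levels, these values cannot show whether replicates were handled together. With the replicate block, 0 genes were called in each comparison, with 1763, 1133 and 21 at an unadjusted p under 0.05. For MT-RNR1 and MT-RNR2 the block moved the log2 fold changes to −4.71 and −3.08 (Kasumi-1), 2.63 and 2.57 (SKNO-1) and 7.39 and 5.70 (difference). With one library left out, they ran for Kasumi-1 from −6.76 to −5.99 and from −5.04 to −4.12, with no value without siMM-mod replicate 2, for SKNO-1 from 2.63 to 4.97 and from 2.44 to 5.06, and for the difference from 7.97 to 11.12 and from 6.55 to 9.51. Under the block, log2 fold changes near 0 turned sign in Kasumi-1 for MT-CO2 (0.00217), in SKNO-1 for MT-ND4L (−0.10), MT-ND4 (−0.00470), MT-ND5 (−0.0274) and MT-CYB (−0.0699), and for the difference for MT-ND1 (−0.0153), MT-ND2 (−0.0866), MT-ATP8 (−0.0722), MT-ATP6 (−0.12), MT-ND4L (−0.0245), MT-ND6 (−0.16) and MT-CYB (−0.10). Without the filter the sign turned for MT-CYB in Kasumi-1 (−0.000868) and for the difference for MT-ATP6 (−0.000359), MT-ND6 (−0.00193) and MT-CYB (−0.0544). It turned in SKNO-1 for MT-ND1 with nuclear scaling (0.00360) and for MT-ATP6 with added copies (0.00160). With one library left out, log2 fold changes of mRNAs that turned sign ran in Kasumi-1 from −0.27 to 0.0259 for MT-ND2, −0.13 to 0.14 for MT-CO2, −0.26 to 0.0856 for MT-ATP6, −0.16 to 0.0554 for MT-ND4L, −0.0655 to 0.27 for MT-ND4, −0.11 to 0.25 for MT-ND5, −0.25 to 0.0806 for MT-ND6 and −0.14 to 0.16 for MT-CYB. In SKNO-1 they ran from −0.79 to 0.35 for MT-ND1, −0.84 to 0.35 for MT-ND2, −0.83 to 0.24 for MT-CO2, −1.42 to 0.35 for MT-ATP8, −0.88 to 0.34 for MT-ATP6, −1.20 to 0.0160 for MT-CO3, −1.04 to 0.34 for MT-ND3, −0.80 to 0.51 for MT-ND4L, −0.49 to 0.38 for MT-ND4, −0.52 to 0.38 for MT-ND5, −1.03 to 0.43 for MT-ND6 and −0.62 to 0.38 for MT-CYB. For the difference they ran from −0.59 to 0.52 for MT-ND1, −0.69 to 0.45 for MT-ND2, −0.57 to 0.15 for MT-CO1, −0.80 to 0.23 for MT-CO2, −0.91 to 0.81 for MT-ATP8, −0.74 to 0.43 for MT-ATP6, −0.97 to 0.21 for MT-CO3, −1.08 to 0.26 for MT-ND3, −0.70 to 0.56 for MT-ND4L, −0.59 to 0.24 for MT-ND4, −0.57 to 0.28 for MT-ND5, −0.90 to 0.51 for MT-ND6 and −0.62 to 0.34 for MT-CYB. MT-CO1 stayed above 0 in both lines under each of these settings, and in Kasumi-1 MT-ND1, MT-ATP8, MT-CO3 and MT-ND3 also kept their sign. By mean unscaled CPM, MT-ND1 and MT-CO3 went the other way in Kasumi-1 and were higher with the siRE-mod label. The siMM-mod and siRE-mod means were 693 and 748 CPM for MT-ND1 and 1701 and 1811 CPM for MT-CO3. All settings keep the siRNA labels, with siRE-mod mostly on CD34-low and siMM-mod mostly on CD34-high libraries. The siRNA and the CD34 level cannot be told apart in these signs. Depth limits the rRNAs, at 16 counts in the lowest library, and the tRNAs, of which 14 of 22 lie under 600 reads.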
